A study of Mus musculus with 12 samples.

Results

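The genes described here encode the dystrophin-associated glycoprotein complex of the muscle membrane and dysferlin, a membrane repair protein. They were chosen by name: Dmd, Utrn, Dag1, Sgca, Sgcb, Sgcd, Sgce, Sntb1, Sspn and Dysf. Of these 10 genes, 9 had a row in both complete tables, out of 13768 genes listed in either table and 12590 listed in both; Dmd was not analysed here. RNA was sequenced from C2C12 cells, an established line of mouse myoblasts that divide in culture and can be made to fuse into myotubes. The 4 groups were polysomal RNA of Ddx27-/- cells, total cellular RNA of Ddx27-/- cells, polysomal RNA of wild-type cells and total cellular RNA of wild-type cells, with 3 samples of each in the labels. Values exist here for 3 knockout polysomal, 2 knockout total, 3 wild-type polysomal and 3 wild-type total libraries. Ddx27 codes for a DEAD-box helicase of the nucleolus that takes part in maturing ribosomal RNA, and polysomal RNA is the RNA found on purified polysomes, mRNAs that carry several ribosomes. The labels give no drug, no differentiation step, no clone and no statement that the samples of a group were separate cultures, so the p-values measure the spread between these samples, which may be technical.

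In muscle fibres, dystrophin ties the actin cytoskeleton to dystroglycan in the plasma membrane, and dystroglycan binds laminin outside the cell. The sarcoglycans and sarcospan form a subcomplex that sits beside dystroglycan and stabilises it, the syntrophins and dystrobrevins are adaptors on the inner face, and utrophin is a close relative of dystrophin that can take its place. Loss of the complex leaves the membrane open to tears during contraction. Dysferlin acts after such a tear: it is a calcium-sensing membrane protein that helps vesicles fuse at the wound. Loss of single genes of this group causes muscular dystrophies in humans.

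Of the 10 genes, 8 matched a promoter window in a RefSeq table built on GRCm38.p6, each window running from 250 bases before to 50 after a transcript start; Sgce and Sntb1 did not. The 3 windows printed here belong to Sgca, the gene whose lower level in knockout total RNA passed under every alternative tried, Sgcb, a partner of Sgca in the same subcomplex that was not called there, and Dag1, the one of the 9 with the largest fall in wild-type polysomal RNA. Capitals mark CANNTG, the E-box letters that myogenic bHLH factors such as MyoD can bind, which reads the same on both strands. The windows lie on the minus strand at chr11:94976278-94976577 (Sgca), chr5:73647688-73647987 (Sgcb) and chr9:108263909-108264208 (Dag1), and are written 5′ to 3′.
Sgca: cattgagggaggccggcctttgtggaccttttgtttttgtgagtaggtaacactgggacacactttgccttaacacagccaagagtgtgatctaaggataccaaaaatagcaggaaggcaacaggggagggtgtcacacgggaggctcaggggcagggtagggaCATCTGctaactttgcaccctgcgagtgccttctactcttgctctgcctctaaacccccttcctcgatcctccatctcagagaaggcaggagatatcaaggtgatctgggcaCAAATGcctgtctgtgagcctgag
Sgcb: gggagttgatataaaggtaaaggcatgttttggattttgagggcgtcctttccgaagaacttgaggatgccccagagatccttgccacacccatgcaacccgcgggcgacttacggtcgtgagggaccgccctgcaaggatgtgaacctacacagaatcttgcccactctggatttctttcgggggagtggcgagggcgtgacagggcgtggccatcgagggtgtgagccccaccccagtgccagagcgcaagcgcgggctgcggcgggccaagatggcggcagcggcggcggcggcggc
Dag1: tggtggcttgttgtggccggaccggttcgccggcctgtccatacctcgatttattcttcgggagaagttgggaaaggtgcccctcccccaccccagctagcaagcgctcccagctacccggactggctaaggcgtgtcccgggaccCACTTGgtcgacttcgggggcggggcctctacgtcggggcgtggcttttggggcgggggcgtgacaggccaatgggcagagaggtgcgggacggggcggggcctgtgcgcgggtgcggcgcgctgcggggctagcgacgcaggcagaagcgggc
Dag1 has a second, overlapping window in the table that is not printed, with 1 CANNTG match, 4 GGGCGG matches and a GC content of 75.3%. The Sgca window held 2 CANNTG matches, the printed Dag1 window held 1 and the Sgcb window held 0. Among genes whose windows are not printed, Utrn had 7 matches and Sgcd 2. Dmd had 3 and 0 in its windows 1 and 2, Sspn 0 and 1, and Dysf 0 and 1. Utrn, Sgcd, Sspn and Dysf were not called between genotypes in either fraction. Sgca, Sntb1 and Sgce were, but Sntb1 and Sgce have no window, so whether matches go with calls was not tested. CANNTG was present in 72.3% of the 32851 windows in the table, so a match is the usual case and a window without these letters is the less common one. GGGCGG, the core letters of a GC box searched on both strands, was found 3 times in the printed Dag1 window, 1 time in the Sgcb window and 0 times in the Sgca window, against a presence in 35.7% of all windows. The GC content was 52.7% for Sgca, 62.7% for Sgcb and 69.7% for the printed Dag1 window, beside a median of 52.7% over all windows. These matches describe letters in the windows and not binding.

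The libraries held 13683674 to 27347878 reads in listed genes, so that 3 reads, the least taken as detection, correspond to values of 0.099 to 0.257. Ddx27 itself stood at 31.6 to 54.3 in the 5 knockout libraries, against 136 to 203 in the 6 wild-type libraries on a common scale: it was lower in every knockout library and not absent. Of 10 myoblast markers all were listed for the wild type, Pax7 at only 1.45 to 6.74, and 9 for the knockout, Pax7 not among them. Myod1, which encodes the myoblast factor MyoD, was at 0 to 1.13 in the knockout libraries, against 69.7 to 177 in the wild-type libraries. Myf5, a related myoblast factor, was at 71.4 to 123 in the knockout and 56.3 to 88.3 in the wild type. Gene models that collect ribosomal RNA took 0.382 to 32.4% of the signal in knockout polysomal, 0.103 to 0.147% in knockout total, 0.666 to 14.4% in wild-type polysomal and 0.0587 to 0.0767% in wild-type total libraries. The share was above 10% in knockout polysomal libraries 1 and 2 and in wild-type polysomal library 2. Set against the mean total RNA of the same genotype, the log2 slope per doubling of gene length was -0.16 to 0.16 in knockout polysomal libraries and -0.54 to -0.14 in wild-type polysomal libraries, where long genes were read at lower values. The knockout total libraries, of which there are 2, had slopes of 0.11 and -0.11 around their own mean, equal in size by construction. The part of these differences in the results that follow was not tested beyond the values given.

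All 9 genes were detected in all 11 libraries. Set per kilobase of the gene length in the files, on the common scale, their order in wild-type total RNA was Dag1 (28.9 ± 1.7), Sgcb (19.8 ± 0.82), Utrn (13.1 ± 0.93), Sgce (11.6 ± 1.7), Sspn (11.4 ± 0.84), Sgca (8.08 ± 1.8), Sntb1 (3.67 ± 0.60), Dysf (2.48 ± 0.17) and Sgcd (0.464 ± 0.12; mean ± SD of normalised read count per kilobase, n = 3). Of neighbours in this order, Utrn and Sgce overlapped, as did Sgce and Sspn, and the other neighbours did not. Dag1, Sgcb and Utrn also led in knockout total RNA, at 19.2 ± 8.4, 13.0 ± 1.6 and 7.82 ± 4.1 (n = 2), where Dag1 overlapped Sgcb, Sgcb did not overlap Utrn, and Utrn overlapped Sspn, the next in order. In both polysomal groups Sgcb came first and Sspn after it, without overlap between them, at 17.8 ± 3.1 and 11.6 ± 2.2 in the knockout and 15.5 ± 1.6 and 7.06 ± 2.5 in the wild type (n = 3 each). The complex is known as a set of proteins that assemble together, yet its mRNAs spanned from 28.9 for Dag1 to 0.464 for Sgcd per kilobase in the same wild-type total libraries.

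**Figure D1:**
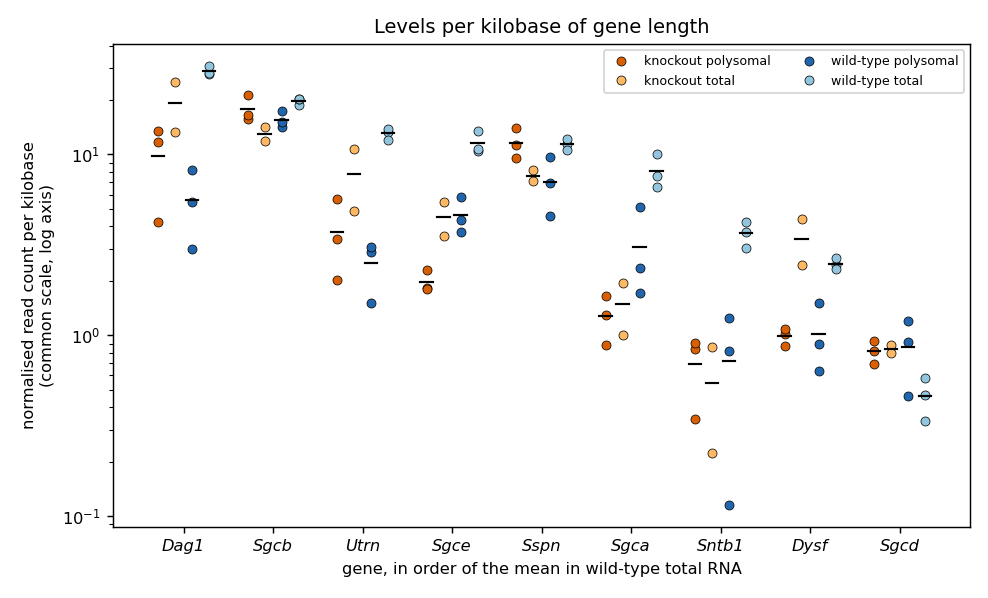
Normalised read count per kilobase of gene length on the common scale (log axis) for the 9 genes, in order of their mean in wild-type total RNA; points are libraries (3 knockout polysomal, 2 knockout total, 3 wild-type polysomal, 3 wild-type total) and short lines are means. Dag1 leads in both total RNA groups, Sgcb leads in both polysomal groups, and the wild-type total points of Sgca and Sntb1 lie above all points of the other groups.

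The share of each gene in the signal also differed between fractions. Sgcb took 32.8 to 42.1% of the summed per-kilobase signal of the 9 genes in knockout polysomal libraries, against 20.5 to 24.6% in knockout total libraries, and 35.2 to 41.3% in wild-type polysomal libraries, against 19.3 to 20.4% in wild-type total libraries. Dag1 took 11.4 to 23.1% in knockout polysomal and 27.8 to 36.5% in knockout total libraries. In the wild type it took 8.80 to 19.2% of polysomal and 28.3 to 29.5% of total signal. Utrn per kilobase was 0.253 to 0.529 of Dag1 over all 11 libraries, with both ends of that range in polysomal libraries. Within the knockout polysomal group the ratio was 0.488 in library 2 and 0.253 in library 3.

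The question of the design is which mRNAs are more or less abundant on polysomes than in the cell, and whether that differs without Ddx27. In knockout cells 1 of the 9 genes fell in polysomal relative to total RNA, Dysf, where 1.85% of 12070 genes fell and 0.911% rose, and the medians were -0.11 for the 9 genes and 0.037 for all genes. Knockout polysomal libraries were all below the total ones in 2 of the 9 genes, Sgce and Dysf (18.3% of all genes), and all above them in 2, Sgcb and Sspn (22.3%). In wild-type cells 6 of the 9 genes fell in polysomal relative to total RNA: Dag1, Utrn, Sntb1, Sgca, Sgce and Dysf, with log2 fold changes from -2.46 to -1.28 on the scale of value + 1. The other 3, Sgcb, Sspn and Sgcd, were not called, and none rose. Over all 12380 genes tested 13.8% fell and 8.89% rose, and the median log2 fold change was -1.28 for the 9 genes and -0.019 for all genes. In 8 of the 9 genes every wild-type polysomal library lay below every total library, which held for 27.7% of all genes. The test throughout is limma's moderated test across all genes with Benjamini-Hochberg adjustment, and a gene is called at an adjusted p under 0.05. Where a wild-type total library was left out, whichever of the 3 it was, the wild-type count dropped to 2 (Dag1 and Utrn), and without wild-type polysomal library 2 it was 8, with Sspn lower and Sgcd higher added. The calls over all genes moved the same way. They went from 2806 to between 461 and 581 without a wild-type total library, and to 5777 of 12222 without wild-type polysomal library 2.

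Markers of differentiated muscle moved in the same direction: 6 of 11 tested fell in knockout polysomal RNA and 14 of 14 in wild-type polysomal RNA. Their summed value was 30.9 to 55.8 in knockout polysomal, 249.7 to 262 in knockout total, 27.0 to 48.0 in wild-type polysomal and 442 to 1041 in wild-type total libraries, with Myh8 the list's only gene in neither table. Myoblast markers fell for 3 of 8 tested in the knockout and 7 of 10 in the wild type, and fibroblast markers for 1 of 2 in the knockout and 4 of 4 in the wild type. Of 6 adipocyte and 6 endothelial markers 0 were listed, and no leukocyte or Schwann cell marker was called in these comparisons. In bulk RNA, fewer cells of a type and less RNA per cell cannot be told apart, and the part of these lists in the result was not tested.

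**Figure D2:**
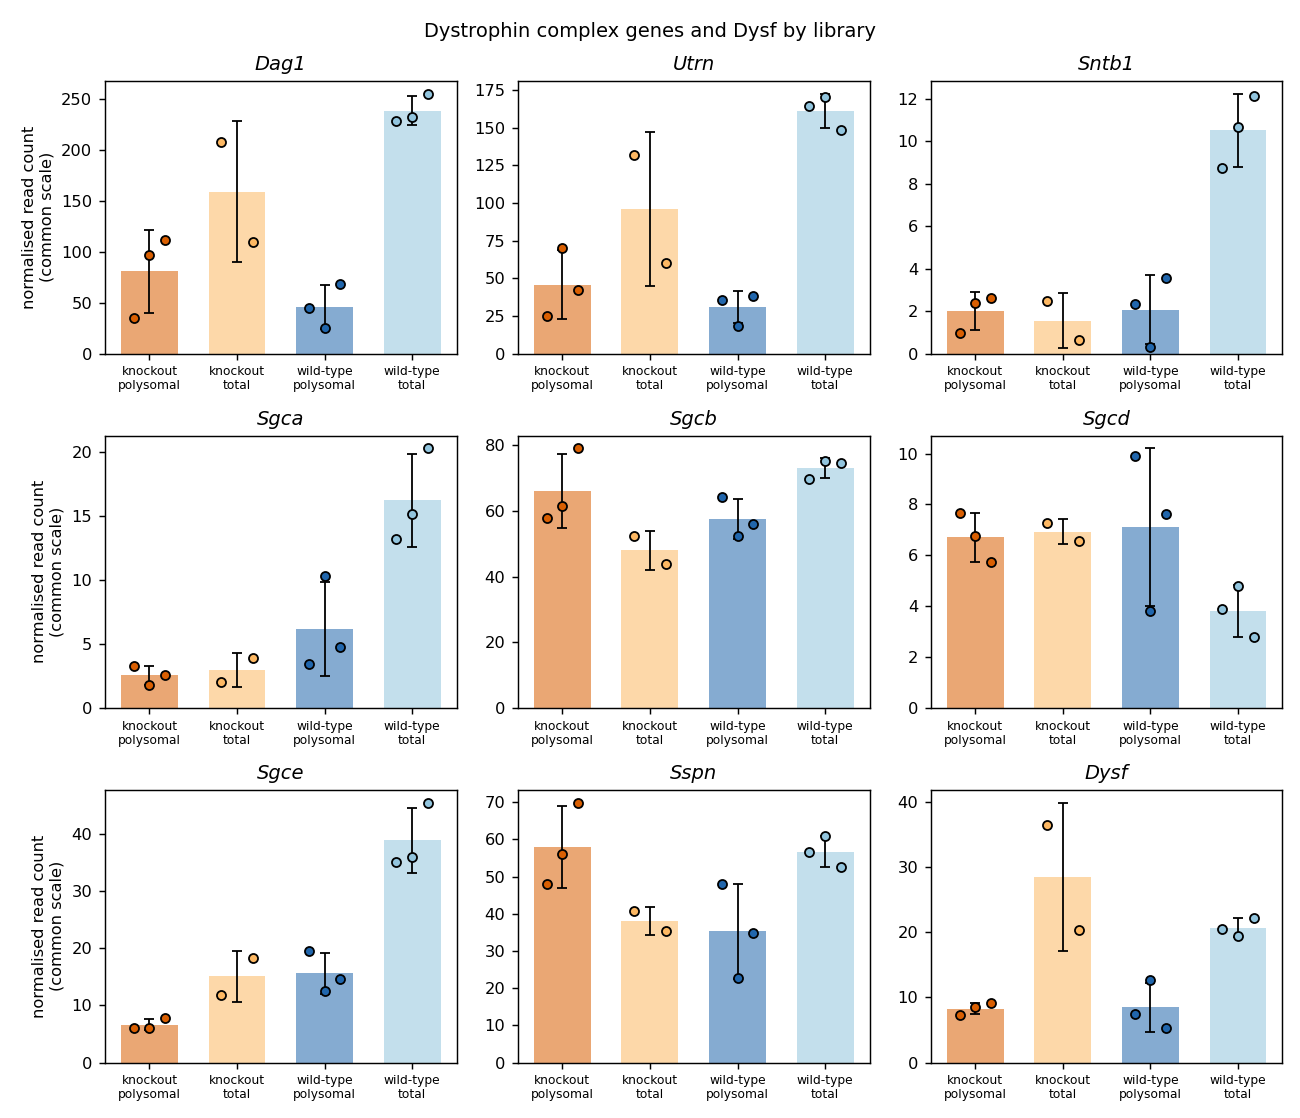
Normalised read counts on the common scale for each of the 9 genes; bars are means, error bars are SD and points are libraries, in the order knockout polysomal (n = 3), knockout total (n = 2), wild-type polysomal (n = 3) and wild-type total (n = 3). Wild-type total libraries stand highest for Dag1, Utrn, Sntb1, Sgca and Sgce, while for Sspn and Sgcb the knockout polysomal libraries stand above the knockout total ones.

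Dag1 (ENSMUSG00000039952, chromosome 9, 108204861 to 108263977) encodes both subunits of dystroglycan, the laminin receptor at the centre of the complex. Knockout polysomal libraries 1, 2 and 3 had 33.8, 92.8 and 111 normalised read counts, against 197 and 104 in knockout total libraries 1 and 2. Wild-type polysomal libraries had 48.1, 24.2 and 72.0, against 237, 241 and 261 in wild-type total libraries. The wild-type fractions were far apart, with the highest polysomal library far below the lowest total library, while in the knockout polysomal library 3 exceeded total library 2. The log2 fold change between the fractions was -1.01 ± 0.49 in the knockout (SE, adjusted p = 0.261) and -2.46 ± 0.36 in the wild type (adjusted p = 0.0055), and the difference between the genotypes is tested further on.

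Utrn (ENSMUSG00000019820, chromosome 10, 12382187 to 12869888) encodes utrophin, the actin-binding relative of dystrophin that is spread over the membrane of immature muscle cells and kept at the neuromuscular junction in adult fibres. Its values followed those of Dag1 between groups, though not in each library, with 24.0, 67.5 and 41.7 in knockout polysomal libraries, against 125 and 57.0 in knockout total libraries. The wild type had 38.0, 18.05 and 40.2 in polysomal libraries, against 170.1, 176 and 152 in total libraries. Again the wild-type fractions did not overlap and the knockout fractions did. The log2 fold change was -1.03 ± 0.45 in the knockout (adjusted p = 0.220) and -2.42 ± 0.30 in the wild type (adjusted p = 0.0034, limma), and leaving out any 1 library kept the wild-type call for both Utrn and Dag1, with adjusted p at most 0.0318 and 0.0479. Their lengths are 12308 (Utrn) and 8261 bases (Dag1), and long genes were read at lower values in wild-type polysomal libraries. Both calls stood in all 18 alternatives, removal of the length trend among them. The log2 fold changes ranged from -2.61 to -1.85 (Utrn) and from -2.81 to -2.04 (Dag1).

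Sntb1 (ENSMUSG00000060429, chromosome 15, 55636388 to 55907302) encodes beta-1-syntrophin, an adaptor that holds signalling proteins and channels at the complex. It was near the low end of what the libraries could measure, with 0.953, 2.31 and 2.58 in knockout polysomal libraries, against 2.34 and 0.607 in knockout total libraries. The wild type had 2.49, 0.322 and 3.75 in polysomal libraries, where 0.322 stood for 4 reads, against 9.03, 11.02 and 12.5 in total libraries. Only the wild-type total libraries were high, and the other 3 groups overlapped one another. Polysomal over total RNA gave a log2 fold change of 0.30 ± 0.40 in the knockout (adjusted p = 0.694) and -2.07 ± 0.45 in the wild type (adjusted p = 0.0187), and the pseudocount of 1 understates a change at these values.

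Of the sarcoglycan genes, Sgca and Sgce were called lower in wild-type polysomal RNA, Sgcb and Sgcd were not called there, and none was called in the knockout. Sgca (ENSMUSG00000001508, chromosome 11, 94962777 to 94976327), which encodes alpha-sarcoglycan, the member made by striated muscle, had 3.20, 1.71 and 2.58 in knockout polysomal libraries, against 1.91 and 3.72 in knockout total libraries. Wild-type polysomal libraries had 3.65, 10.1 and 5.03, against 13.7, 15.7 and 20.8 in wild-type total libraries. The knockout values were low in both fractions and overlapped, and the wild-type fractions were separate, with polysomal library 2 the highest of its group. The log2 fold change was -0.11 ± 0.32 in the knockout (adjusted p = 0.876) and -1.37 ± 0.34 in the wild type (adjusted p = 0.0291). The wild-type call was lost without wild-type polysomal library 1 or 3 or any 1 wild-type total library, with adjusted p up to 0.130, and with quantile normalization (0.0514).

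Sgce (ENSMUSG00000004631, chromosome 6, 4674350 to 4747204) encodes epsilon-sarcoglycan, the broadly expressed relative of alpha-sarcoglycan, from a gene expressed from the paternal allele. Knockout polysomal libraries had 5.92, 5.82 and 7.66, against 11.3 and 17.3 in knockout total libraries. Wild-type polysomal libraries had 20.8, 12.2 and 15.5, against 36.3, 37.3 and 46.6 in wild-type total libraries. Polysomal values were below total values without overlap in both genotypes. The knockout value of -1.01 ± 0.29 did not pass (adjusted p = 0.0938), and the fall was called in the wild type, at -1.28 ± 0.24 (adjusted p = 0.0111). In the authors' deposited table for the knockout, Sgce was called, with a log2 fold change of -1.14 and an FDR of 0.0344.

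Sgcb (ENSMUSG00000029156, chromosome 5, 73632749 to 73647737) encodes beta-sarcoglycan, around which the other sarcoglycans assemble. It had 56.0, 59.1 and 78.3 in knockout polysomal libraries, against 49.5 and 41.5 in knockout total libraries. It had 68.3, 51.1 and 59.1 in wild-type polysomal libraries, against 72.2, 77.9 and 76.5 in wild-type total libraries. The fractions did not overlap in either genotype, and their order was opposite: polysomal higher in the knockout and lower in the wild type. Neither passed, at 0.48 ± 0.25 in the knockout (adjusted p = 0.283) and -0.35 ± 0.17 in the wild type (adjusted p = 0.176).

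Sspn (ENSMUSG00000030255, chromosome 6, 145931873 to 145965225) encodes sarcospan, a tetraspanin-like protein bound to the sarcoglycans, and its values had the same layout. Knockout polysomal libraries had 46.4, 53.9 and 69.2, against 38.5 and 33.5 in knockout total libraries. Wild-type polysomal libraries had 51.2, 22.2 and 36.8, against 58.6, 63.1 and 54.0 in wild-type total libraries. The log2 fold change was 0.62 ± 0.25 in the knockout (adjusted p = 0.192) and -0.73 ± 0.30 in the wild type (adjusted p = 0.111), so neither was called. Both orders together, lower in the wild type and higher in the knockout, occurred in 1.74% of the genes tested in both genotypes.

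Sgcd (ENSMUSG00000020354, chromosome 11, 46971077 to 47989451) encodes delta-sarcoglycan, the partner of beta-sarcoglycan in the assembly core, and was the scarcest of the 9 genes per kilobase in wild-type total RNA. Knockout polysomal libraries had 7.42, 6.50 and 5.68, against 6.89 and 6.23 in knockout total libraries. Wild-type polysomal libraries had 10.5, 3.71 and 8.05, against 4.02, 4.97 and 2.86 in wild-type total libraries. The knockout log2 fold change was -0.010 ± 0.26 (adjusted p = 0.985). It was the only one of the 9 with a wild-type log2 fold change above 0, at 0.70 ± 0.36 (adjusted p = 0.187), and polysomal library 2 was the one that overlapped the total libraries. With the length trend removed from each library, Sgcd was called higher in wild-type polysomal RNA, at 1.09 (adjusted p = 0.0314).

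Dysf (ENSMUSG00000033788, chromosome 6, 84008361 to 84211060), which encodes dysferlin, was the gene called lower in both genotypes. Knockout polysomal libraries had 7.08, 8.21 and 8.996, against 34.6 and 19.3 in knockout total libraries. Wild-type polysomal libraries had 7.97, 12.3 and 5.58, against 21.2, 20.1 and 22.9 in wild-type total libraries. Polysomal values were below total values without overlap in both. The log2 fold change was -1.57 ± 0.30 in the knockout (adjusted p = 0.0349) and -1.28 ± 0.28 in the wild type (adjusted p = 0.0183). Both calls rest on few libraries: the knockout call was lost without knockout polysomal library 2 or 3 or either knockout total library (adjusted p up to 0.168), and the wild-type call without wild-type polysomal library 1 or any 1 wild-type total library (up to 0.0942). With the length trend removed the wild-type value was -0.88 (adjusted p = 0.116).

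**Figure D3:**
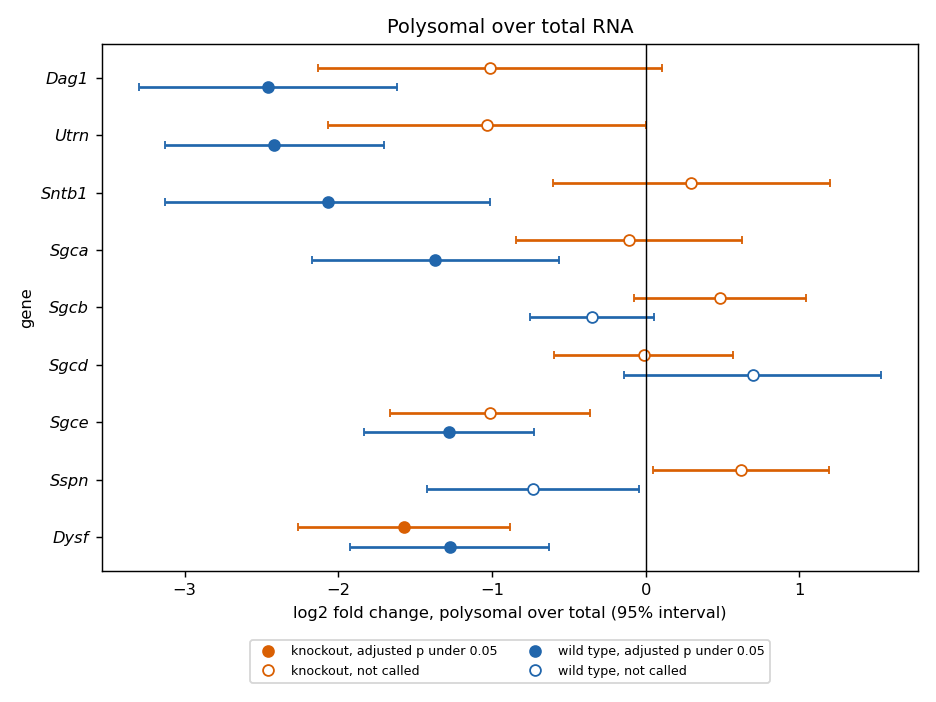
Log2 fold change, polysomal against total RNA (x axis) for the 9 genes (y axis), knockout above wild type for each gene; bars are 95% intervals from limma and filled points have an adjusted p under 0.05. In the knockout only Dysf is called lower, and in the wild type 6 genes are.

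Knockout cells were next set against wild-type cells within each fraction, which asks whether the genes' mRNA levels differed without Ddx27. Since the authors scaled the 2 genotypes' tables separately, the 11 libraries were put on 1 common scale, with divisors between 0.948 and 1.063, and fitted together. In total RNA 3 of the 9 genes fell in the knockout, Sntb1, Sgca and Sgce, and none rose, while 5.79% of 12463 genes fell and 4.73% rose. The median log2 fold change was -0.65 for the 9 genes and -0.0097 for all genes. In 7 of the 9 genes both knockout total libraries lay below all wild-type total libraries, against 33.2% of all genes. Sgcd had both above, against 31.2%. In polysomal RNA 1 of the 9 fell, Sgce, while 3.5% of genes fell and 4.82% rose, and the medians were 0.089 for the 9 genes and -0.0015 for all genes.

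Sgca, alpha-sarcoglycan, had 2.02 and 3.93 on the common scale in knockout total libraries, against 13.2, 15.2 and 20.3 in wild-type total libraries. Its log2 fold change there was -2.14 ± 0.39 (adjusted p = 0.0064, limma), and the call stood when any 1 of the 5 total RNA libraries was left out, with adjusted p from 0.0175 to 0.0445. Polysomal values were 3.30, 1.78 and 2.61 in the knockout and 3.43, 10.3 and 4.76 in the wild type, lower in every knockout library and not called (-0.92 ± 0.35, adjusted p = 0.139). Of 9 myoblast markers tested in total RNA 4 fell, Myod1 by 6.39 ± 0.26 (adjusted p = 2.75e-07), Des, the gene of the muscle intermediate filament desmin, by 1.73 ± 0.24 (adjusted p = 0.00136), Itga7 and Cdh15, and 1 rose, Myf5, at 0.98 ± 0.26 (adjusted p = 0.0367). In polysomal RNA the same 4 fell and none rose. Of 14 differentiated muscle markers tested, 5 fell and none rose in total RNA, while in polysomal RNA none fell and 2 rose, Myl1 (2.09 ± 0.46) and Tmem8c (1.34 ± 0.35). Of 2 leukocyte markers tested, Csf1r rose in total (1.57 ± 0.27, adjusted p = 0.0050) and polysomal RNA (1.27 ± 0.24, adjusted p = 0.0088), with 4 of the list's 6 genes, Ptprc among them, in neither table. Of 3 Schwann cell markers tested, Mbp rose in polysomal RNA (1.73 ± 0.47, adjusted p = 0.0418), with Sox10 in neither table. The part of these markers in the results between genotypes was not tested.

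Sntb1, beta-1-syntrophin, had 2.47 and 0.641 in knockout total libraries, against 8.73, 10.6 and 12.1 in wild-type total libraries, and its log2 fold change was -2.26 ± 0.49 (adjusted p = 0.0161). The call was lost without knockout total library 2 (adjusted p = 0.240), wild-type total library 2 (0.0537) or wild-type total library 3 (0.0677). In polysomal RNA the groups overlapped, with 0.983, 2.40 and 2.61 in the knockout and 2.34, 0.331 and 3.55 in the wild type (0.089 ± 0.44, adjusted p = 0.933).

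Sgce, epsilon-sarcoglycan, was the only one of the 9 called in both fractions. Knockout total libraries had 11.9 and 18.2, against 35.1, 36.0 and 45.4 in wild-type total libraries. Knockout polysomal libraries had 6.11, 6.04 and 7.73, against 19.6, 12.6 and 14.6 in wild-type polysomal libraries. No knockout library reached the lowest wild-type library of its fraction. The log2 fold change was -1.33 ± 0.26 in total RNA (adjusted p = 0.0090) and -1.11 ± 0.23 in polysomal RNA (adjusted p = 0.0130). The call in total RNA was lost without knockout total library 1 (adjusted p = 0.0546), and that in polysomal RNA without knockout polysomal library 2 (0.0513) or with only the 2 groups compared in the fit (0.0760).

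The other 6 genes were not called in either fraction. Sgcb had 52.2 and 43.8 in knockout total libraries, against 69.7, 75.3 and 74.6 in wild-type total libraries, with a log2 fold change of -0.60 (95% interval -1.03 to -0.17, adjusted p = 0.0711). Sspn had 40.7 and 35.4 in knockout total libraries, against 56.7, 60.97 and 52.6 in the wild type (-0.57, interval -1.18 to 0.050, adjusted p = 0.203). Its polysomal values went the other way, at 47.9, 56.0 and 69.8 in the knockout and 48.1, 22.8 and 34.8 in the wild type (0.75, interval 0.19 to 1.30, adjusted p = 0.0958). For Utrn and Dag1 the knockout total libraries stood far apart, at 132 and 60.2 for Utrn and 208 and 110.0 for Dag1, all below the wild-type total libraries (148 to 170.4 and 228 to 255). Their log2 fold changes in total RNA were -0.84 (interval -1.81 to 0.13, adjusted p = 0.227) and -0.65 (interval -1.74 to 0.44, adjusted p = 0.399), and both intervals include 0. Sgcd in total RNA was at 0.74 (interval 0.016 to 1.46, adjusted p = 0.163) and Dysf at 0.39 (interval -0.33 to 1.10, adjusted p = 0.445). With only the total RNA libraries in the fit, 7 of the 9 genes passed in total RNA, the added ones being Utrn, Sgcb and Sspn (lower) and Sgcd (higher), as did 4417 of all genes in place of 1310.

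**Figure D4:**
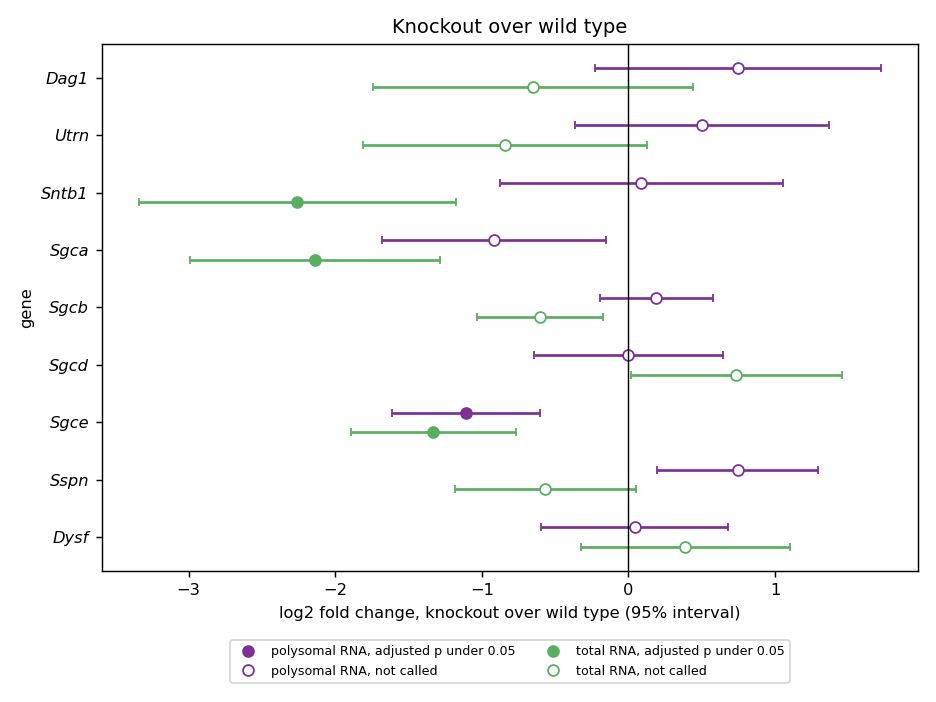
Log2 fold change of knockout over wild type (x axis) for the 9 genes (y axis), polysomal RNA above total RNA for each gene; bars are 95% intervals from limma and filled points have an adjusted p under 0.05. Sgca, Sntb1 and Sgce are called lower in total RNA and Sgce also in polysomal RNA; for 7 of the 9 genes the polysomal estimate lies to the right of the total RNA one.

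Whether the polysomal-to-total ratio itself differed between genotypes was tested as the difference of the 2 log2 fold changes, knockout minus wild type, in the fit over all 11 libraries. None of the 9 genes passed by limma, nor by edgeR on the recovered reads, and DESeq2 called Sgcb and Sspn. At an unadjusted p under 0.05 there were 5, against 20.7% of all genes, and 30 of 12463 genes passed after adjustment, or 0.241%. The difference was above 0 in 7 of the 9 genes, with a median of 1.22 for the 9 genes and 0.053 for all genes. The largest were Sntb1, at 2.35 ± 0.66 (interval 0.90 to 3.80, adjusted p = 0.118), Dag1, at 1.40 ± 0.67 (-0.060 to 2.87, adjusted p = 0.256), Utrn, at 1.34 ± 0.59 (0.043 to 2.64, adjusted p = 0.230), and Sspn, at 1.31 ± 0.38 (0.48 to 2.14, adjusted p = 0.119). Sgca was at 1.22 ± 0.52 (0.077 to 2.37, adjusted p = 0.220) and Sgcb at 0.79 ± 0.26 (0.21 to 1.37, adjusted p = 0.147). Those of Sgce (0.22 ± 0.35), Dysf (-0.34 ± 0.44) and Sgcd (-0.74 ± 0.44) had intervals that include 0. With the 3 polysomal libraries above 10% ribosomal signal left out, 5 of the 9 passed (Sntb1, Dag1, Sgca, Sspn and Sgcb, at 2.15, 1.65, 1.65, 1.32 and 0.996), as did 1077 of all genes; the knockout then rests on 1 polysomal library, assumed to vary as the other groups do, and the wild type on 2. The falls in wild-type polysomal RNA had the same sign and calls without these libraries for all 6 genes, between -2.10 (Utrn) and -1.14 (Sgce), and Sgcd was then called higher (1.03, adjusted p = 0.0068). The calls for Dysf in the knockout (-1.49, adjusted p = 0.0200) and for Sgce in polysomal RNA (-1.04, adjusted p = 0.0446) also stood, and Sgcb and Sspn were then called higher in knockout polysomal over total RNA (0.71 and 0.86).

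Other genes listed with the complex, among them genes of its ligands, of linkers and of an integrin chain, gave counts in the same directions. Itga7 is also on the list of myoblast markers. Over all genes 1.85% fell in knockout and 13.8% in wild-type polysomal over total RNA. Of 11 tested in the knockout, 4 fell in polysomal RNA and none rose (median -0.58), among them Plec, which encodes the cytolinker plectin, at -1.59 ± 0.28, Itga7, the laminin-binding integrin chain of muscle, at -1.56 ± 0.23, and Agrn, which encodes agrin, at -1.37 ± 0.29. Of 14 tested in the wild type, 10 fell and none rose (median -1.54, all genes -0.019), among them Lama2, the laminin chain that dystroglycan binds, at -3.25 ± 0.31, Plec at -2.45 ± 0.15 and Itga7 at -2.01 ± 0.18. The adaptor Dtnb (-0.0062 ± 0.26 in the knockout and -0.18 ± 0.22 in the wild type) was not called in either genotype.

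In total RNA 6 of 14 of these genes fell in the knockout and none rose, where 5.79% of all genes fell and 4.73% rose. Lama2 had 0.162 to 1.32 in knockout total libraries, against 19.7 to 27.0 in wild-type total libraries (-3.81 ± 0.36), and Drp2, dystrophin-related protein 2, had 0.330 to 0.445, against 12.9 to 13.5 (-3.28 ± 0.23). Ank3 and Ank2, ankyrins that link membrane proteins to the cytoskeleton, were at -3.12 ± 0.37 and -1.94 ± 0.33. In polysomal RNA 2 of 14 fell in the knockout, Drp2 (-1.02 ± 0.20) and Itga7 (-0.77 ± 0.19). As many, 2, rose, among them Dtna, alpha-dystrobrevin (1.44 ± 0.27). The median was -0.084 there, and over all genes 3.5% fell and 4.82% rose. The difference in the polysomal-to-total ratio was called for Drp2 alone, at 2.26 ± 0.30 (adjusted p = 0.0257). Its knockout total values of 0.330 to 0.445 are below the pseudocount of 1, which understates a change between the knockout fractions.

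A further list held the enzymes that place the laminin-binding sugar on dystroglycan. Of 17 tested, none was called in knockout polysomal over total RNA, where 1.85% of all genes fell and 0.911% rose, and 1 fell in the wild type, where 13.8% of all genes fell, Pomt2, a protein O-mannosyltransferase subunit, at -0.80 ± 0.20, with medians of -0.15 in the knockout and -0.13 in the wild type. Between genotypes 3 rose in knockout total RNA and none fell (median 0.31, all genes -0.0097), where 4.73% of all genes rose and 5.79% fell. They were Dpm3, a subunit of dolichol-phosphate-mannose synthase, at 1.95 ± 0.53, Pomgnt2, which extends the mannose, at 1.24 ± 0.28, and B3gnt1 at 0.77 ± 0.21. Pomgnt2 also rose in polysomal RNA (1.02 ± 0.25), with 9.67 to 12.2 in knockout polysomal libraries, against 3.58 to 7.98 in wild-type polysomal libraries. The substrate gene Dag1 and its sugar-adding enzymes thus had different values in the same libraries: Dag1 was at -2.46 in wild-type polysomal over total RNA, beside the enzymes' median of -0.13.

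Membrane repair genes were counted with dysferlin left out. Of 27 tested in the knockout, 3 fell in polysomal RNA, Myof, the dysferlin relative myoferlin (-1.85 ± 0.32), and the membrane-binding annexins Anxa1 (-1.52 ± 0.27) and Anxa6 (-1.32 ± 0.26), and 1 rose, Cav1, which encodes caveolin-1 (1.18 ± 0.23), with a median of -0.57. Over all genes 1.85% fell and 0.911% rose there. Of 30 tested in the wild type, 16 fell and 2 rose (median -0.70), where 13.8% of all genes fell and 8.89% rose. Ahnak, a giant protein known to bind dysferlin, was at -2.73 ± 0.47, Myof at -2.40 ± 0.20, and Ano5, a membrane protein whose loss also causes a limb-girdle dystrophy in humans, at -1.99 ± 0.28. Trim72, which encodes the wound-sealing protein MG53, was at 0 to 0.083 in wild-type polysomal libraries, under the limit of detection, against 2.51 to 7.49 in wild-type total libraries. Syt7, a calcium sensor of lysosome fusion, rose (1.35 ± 0.28), as did Pdcd6, which encodes the calcium-binding repair protein ALG-2 (0.66 ± 0.17). Myof and Dysf, the ferlins in these lists, were thus each called lower in polysomal RNA of both genotypes. Between genotypes, Cav1 (-1.71 ± 0.18) and Capn2 (-1.01 ± 0.25) fell in total RNA and Pdcd6 rose (0.95 ± 0.23), of 29 tested. Over all genes 5.79% fell and 4.73% rose, so these counts lie near the shares of all genes. In polysomal RNA Capn3, a muscle calpain, rose (1.28 ± 0.27), with 8.90 to 12.4 in knockout polysomal libraries, against 3.11 to 4.61 in wild-type polysomal libraries, and so did Smpd1 (0.67 ± 0.16). None of the 29 fell there, while 4.82% of all genes rose and 3.5% fell. None of these genes was called for the difference between the ratios.

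**Figure D5:**
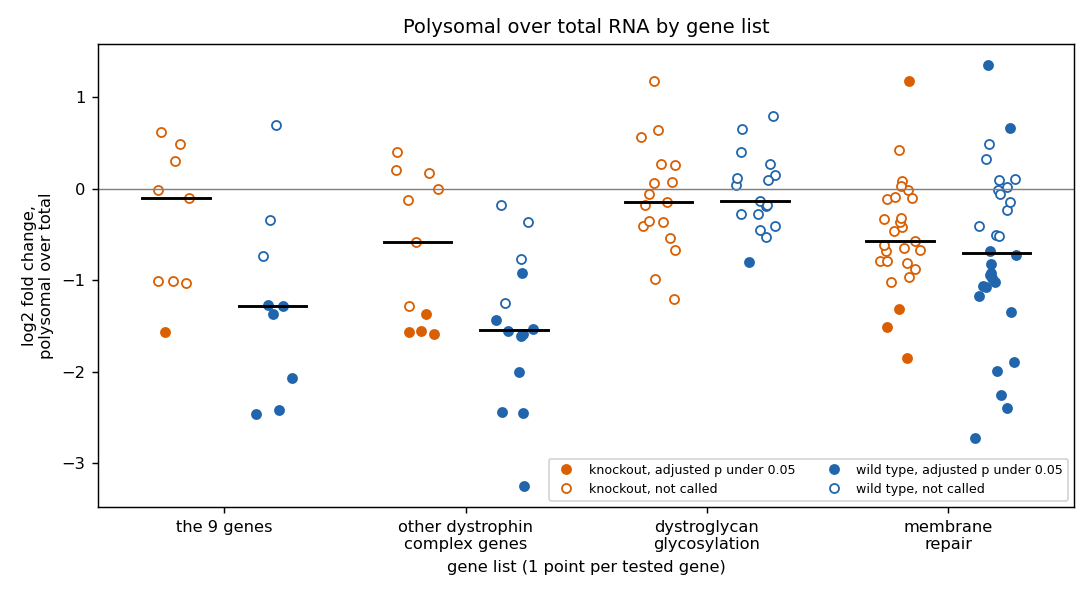
Log2 fold change, polysomal against total RNA (y axis) for the 9 genes and for 3 lists of related genes (x axis), knockout left and wild type right in each; each point is a tested gene, filled where the adjusted p is under 0.05, and lines are medians. The wild-type medians lie at -1.28 for the 9 genes, -1.54 for other genes listed with the complex, -0.13 for the sugar-adding enzymes and -0.70 for membrane repair genes.

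Across the 11 libraries, described without a test because the libraries share 4 groups, Utrn and Dag1 were the pair with the closest log2 values (Pearson r = 0.965) and Sgca and Sgcd the pair with the most opposed ones (r = -0.824). Among 9394 or 9395 other genes with a mean of at least 10, the closest to Utrn was Zzef1 (r = 0.996), the closest to Dag1 was Atf6 (r = 0.991), and the closest to Sgce was Des, the desmin gene (r = 0.969). Sntb1 was closest to Tbc1d1 (r = 0.985), Sgca to BC034090 (0.977), Dysf to Inf2 (0.971), Sgcd to Upf3b (0.956), Sspn to Fstl1 (0.948) and Sgcb to Katnal1 (0.939).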

How the data were processed

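RNA sequencing of C2C12 total and polysomal RNA was analysed from 2 tables, 1 per genotype. The submitters' processing notes name STAR, HTSeq, edgeR and mm10, with no versions. The authors deposited normalised read counts (a signal, not raw counts), which divide by 1 factor for each library into whole reads (100% of values, within 0.001 reads), and which were scaled separately in each table. Beside it stand, per the file headers, log2 fold changes, p-values with an FDR, and gene lengths in bases. Knockout columns match their group but not a sample number, so their numbers only name columns, and 0 columns of values were left unmapped.

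Genes that reached 1 in 3 or more libraries were tested on log2(value + 1) with limma 3.58.1 in R 4.3.3, with a mean-variance trend and Benjamini-Hochberg adjustment at 0.05, two-sided. Within a genotype, polysomal was set against total RNA on that table. Across genotypes, median-of-ratios factors made 1 common scale, and all libraries were fitted as 4 groups. The planned unit was CPM-like values, and the same test was kept. Alternatives were other pseudocounts, filters, scalings and fits, edgeR 4.0.16 and DESeq2 1.42.0 on recovered reads, removal of the length trend, and leaving out libraries. The scripts were tested on simulated data. Spreads are SD, errors of fold changes SE. The 3-read limit covers counting error only. No pair of libraries of a group agreed within sampling noise. Of related lists, up to 4 genes called per direction with the largest change are named, plus a set of complex and repair genes; some are not reported here. Members and lists were chosen with earlier results of these data known.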

Additional observations from a re-analysis of the deposited data

Results flagged for a closer look

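For Sgcb and Sspn, every knockout polysomal library lay above every knockout total library and every wild-type polysomal library lay below every wild-type total library, so the fractions stood in opposite order in the 2 genotypes. The difference in log2 fold change, knockout minus wild type, was 0.79 for Sgcb and 1.31 for Sspn, and limma's test of that difference did not pass (adjusted p = 0.147 and 0.119). The same order of libraries was met by 217 of 12463 genes, or 1.74%. Without the 3 polysomal libraries above 10% ribosomal signal the differences were 0.996 and 1.32. The knockout then rests on polysomal library 3 alone, the highest of its group for Sgcb and Sspn, so these values have no spread of their own there.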

How the results depend on the processing

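For the 9 genes in 5 comparisons (45 values), 777 alternatives were computed: 695 kept direction and side of the threshold, 27 lost a call, 26 gained one and 29 changed sign, all for values that were not called. Leaving out single libraries of the groups compared moved the number of the 9 genes called from 1 to between 0 and 2 in knockout polysomal over total RNA, from 6 to between 2 and 8 in wild-type polysomal over total RNA, from 3 to between 2 and 3 for knockout over wild type in total RNA, from 1 to between 0 and 2 in polysomal RNA, and left it at 0 for the difference. The knockout polysomal count was 3 with the length trend removed or without the libraries rich in ribosomal signal (chosen after seeing the data), and 2 by DESeq2 or with all 4 groups fitted. With only the 2 groups compared, knockout over wild type gave 7 in total and 0 in polysomal RNA. DESeq2 gave 2 in polysomal RNA and 2 for the difference, which rose to 5 without the libraries rich in ribosomal signal. The cause of these shifts was not tested. Over all genes, DESeq2 called 1288 in knockout polysomal over total RNA in place of 333, 4369 in place of 2806 in the wild type, 2464 in place of 1310 between genotypes in total RNA and 943 in place of 30 for the difference. With the length trend removed it was 1460 in the knockout and 122 for the difference. Leaving out single libraries gave 5 to 1622 in the knockout, 461 to 5777 in the wild type and 0 to 357 for the difference. Between genotypes it gave 258 to 1356 in total RNA and 419 to 1645 in polysomal RNA.

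Signs changed for knockout over wild type in polysomal RNA with quantile normalization (Sgcd -0.13, Dysf -0.13, Sntb1 -0.14), the length trend removed (Sgcd -0.11, Dysf -0.063), edgeR (Sgcd -0.089, Sntb1 -0.094), DESeq2 (Sgcd -0.099, Dysf -0.014, Sntb1 -0.075) and the ribosome-rich libraries left out (Sgcd -0.53, Sntb1 -0.11, and Dysf 0.078 for the difference). With single libraries left out the ranges were, in polysomal RNA, -0.34 to 0.25 (Sgcd), -0.22 to 0.34 (Dysf) and -0.43 to 0.46 (Sntb1), for knockout polysomal over total RNA -0.46 to 0.24 (Sgca), -0.094 to 0.073 (Sgcd) and -0.23 to 0.57 (Sntb1, testable in 2 of 5), for Dysf in total RNA -0.018 to 0.79, and for the difference -0.065 to 0.51 (Sgce) and -0.75 to 0.063 (Dysf). In the wild type, same-numbered polysomal and total libraries did not deviate together (correlations 0.21, -0.22 and -0.07), and the fit with the replicate block called 6 of the 9 genes and 1946 genes in all. No paired analysis was possible because the knockout columns carry no sample number, for any comparison with the knockout. For the difference the widest standard errors were those of Dag1, Sntb1 and Utrn (0.67, 0.66 and 0.59).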

Other observations

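Sgce lies 101 bases from Peg10 on chromosome 6, and both are known as neighbours expressed from the paternal allele in an imprinted cluster; these neighbours were looked at after the Sgce values were seen. Peg10, a gene derived from a retrotransposon, had 0.342 and 3.41 on the common scale in knockout total libraries, against 22.1 to 26.7 in wild-type total libraries (log2 fold change -3.41 ± 0.53, limma adjusted p = 0.00253). In polysomal RNA it had 0.983 to 2.84 in the knockout and 8.26 to 25.2 in the wild type (-2.63 ± 0.48, adjusted p = 0.00640). The next genes on either side with values, Casd1 and Col1a2 among them, were not called: Casd1 was at -0.93 (adjusted p = 0.102) in total and -0.19 (0.762) in polysomal RNA, Col1a2 at -0.72 (0.0894) and -0.28 (0.509), and Pon2 at -0.08 (0.871) and -0.14 (0.792). Peg10 and Sgce were thus the genes of this stretch called lower in the knockout in both fractions.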
